A study of Arabidopsis thaliana with 28 samples.

Results

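The plants lacking SPT5L and the plants lacking AGO4 were compared to see whether both proteins, which act on RNA polymerase V (Pol V) transcripts, affect the same stretches of the Arabidopsis thaliana genome. The 4 libraries were chosen by their labels: spt5l of an untagged set and of gp3, and ago4 of gp2 and of gp3, out of 28 samples in all. The plants of these libraries were 18-day-old Columbia seedlings, and the labels name the genotypes spt5l, ago4 and Col-0 (wild type) with no allele. IPARE, the assay, sequences the 5′ ends of RNA pulled down with an antibody to NRPE1, the largest Pol V subunit. Library titles carry a tag (none, gp2 to gp6), called a set here; its meaning is not stated. Only gp3 holds both genotypes, and each set has its own Col-0 library. The fit across libraries also holds 5 nrpe1, 2 dms5-1 and 2 drd3-3 libraries, each genotype named by the labels as written here. Each mutant library was therefore divided by the Col-0 library of its set: the untagged and gp3 Col-0 for spt5l, the gp2 and gp3 Col-0 for ago4.

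In RNA-directed DNA methylation (RdDM), Pol V makes non-coding transcripts at transposons and repeats. AGO4, an argonaute protein, binds small RNAs that pair with these transcripts, and methylation of the DNA follows. SPT5L, also called KTF1, is a relative of the elongation factor SPT5 whose tail of GW and WG repeats binds AGO4. Both proteins are placed downstream of Pol V transcription itself.

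The deposited table counts reads over the TAIR10 genome in 794311 windows, each 200 bp long and 150 bp after the last, so neighbours share 50 bp. The authors' lists put 158314 windows in an RdDM class, 204367 in a non-RdDM class with Pol V transcription outside RdDM targets, and 431630 in a class without Pol V transcription. Total counts were 5167532 (untagged) and 5148665 (gp3) in spt5l, 6957714 (gp2) and 4331272 (gp3) in ago4, and 4076398 to 5647081 in the 3 Col-0 libraries of these sets. Nothing in the labels tells whether replicates were grown separately, so p-values here rest on a spread that may be technical.

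The SPT5L gene itself, listed as KTF1 (AT5G04290), had more counts in spt5l than in any other of the 19 libraries fitted: 545 and 469 counts in spt5l, against 82 and 47 in ago4 and 10 to 83 in 6 Col-0 libraries. That is 105 and 91.1 CPM, or counts normalised to library size, in spt5l, and a log2 difference from ago4 of 2.60 (SE 0.68, edgeR adjusted p = 0.017). The call was lost with DESeq2 (adjusted p = 0.065), without sets as blocks (0.134), without spt5l of gp3 (0.324) and without ago4 of gp3 (0.150). AGO4 (AT2G27040) had few counts in every library: 8 and 13 in spt5l, 10 and 0 in ago4, and 0 to 31 in Col-0. Where the mutations lie is not given in the sources, so neither gene's count can check the labels.

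The Col-0 library of gp3, which divides 1 library of each mutant, stood apart from the other wild types. Similarity was measured as the correlation of log2 levels over 19039 Pol V windows with at least 200 counts in 10 libraries, all of which share these windows. The other 5 Col-0 libraries correlated with each other at 0.61 to 0.80. Col-0 of gp3 correlated with those 5 at 0.14 to 0.24, but with spt5l at 0.51 to 0.58 and with ago4 at 0.57 to 0.65. The pair of spt5l libraries correlated at 0.86 and the pair of ago4 libraries at 0.87, while spt5l and ago4 libraries correlated at 0.32 to 0.39. Each genotype thus had a window pattern of its own that recurred in different sets. Of 15529 windows with at least 100 counts over the other 5 Col-0 libraries, 1460 (9.40%) were at or below 10% of their mean in Col-0 of gp3. Those 1460 windows stood at 44.5% (untagged) and 29.2% (gp3) of the 5-library mean in spt5l, and at 9.82% (gp2) and 6.76% (gp3) in ago4. Over all 15529 windows the values were 104% and 78.3% in spt5l, and 54.5% and 58.3% in ago4. A ratio to Col-0 of gp3 therefore hides losses that this library shares, and several results that use it are also given over other Col-0 libraries.

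**Figure D1:**
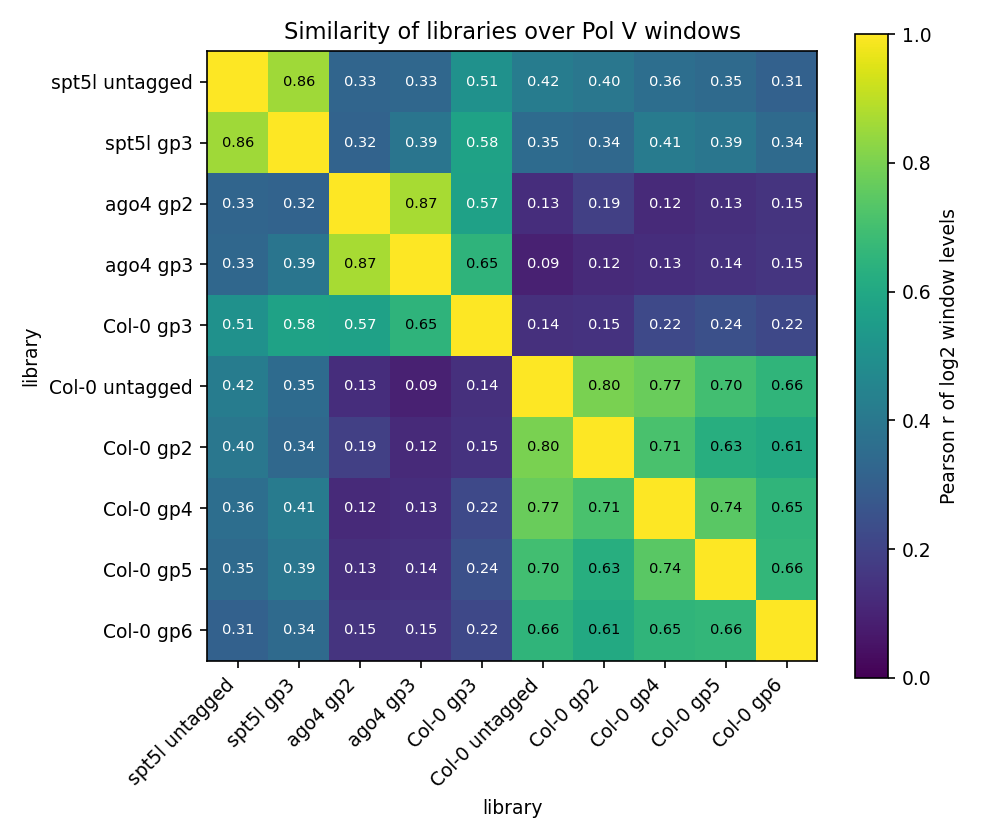
Correlation of log2 window levels between spt5l, ago4 and Col-0 libraries over 19039 Pol V windows; each cell is 1 pair of libraries, coloured by Pearson's r. The spt5l pair (0.86) and the ago4 pair (0.87) stand out, and Col-0 of gp3 is closer to the mutants than to the other Col-0 libraries.

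Scaled to windows without Pol V transcription, the summed Pol V signal was below that of the own-set Col-0 in all 4 mutant libraries. On that scale spt5l and ago4 were not separated by it. Levels were counts divided by the library's counts in windows without Pol V transcription, ribosomal DNA left out, and the share kept is that level as a percentage of the own-set Col-0. In RdDM windows spt5l kept 68.5% (untagged) and 81.8% (gp3), and ago4 kept 74.5% (gp2) and 64.3% (gp3). In non-RdDM Pol V windows spt5l kept 74.2% and 93.3%, and ago4 kept 77.1% and 65.6%. The RdDM levels themselves, 1.81 and 1.29 in spt5l and 1.02 and 1.01 in ago4, lay within the 0.855 to 2.64 of the 6 Col-0 libraries. The mean log2 difference, spt5l minus ago4, was 0.11 (SE 0.17) in the RdDM class and 0.23 (SE 0.20) in the non-RdDM class. Both were within the spread between libraries (exact two-sided permutation test, p = 0.667 each, n = 2 each, where the smallest possible p is 0.333). The direction was not shared between sets. In the RdDM class spt5l was 1.27-fold of ago4 within gp3 but 0.919-fold across the untagged set and gp2. With Col-0 of gp4 as divisor for gp3, spt5l of gp3 kept 50.7% and ago4 of gp3 kept 39.9% of the RdDM signal, and 53.6% and 37.8% of the non-RdDM signal. Over Col-0 of gp5 and gp6, spt5l of gp3 had 103% and 151% of the RdDM signal, and ago4 of gp3 81.2% and 119%. The level in either mutant of gp3 thus depends on which wild type divides it. The separation depended on the scale too. Scaled to all window counts, ribosomal DNA included, spt5l kept 93.8% and 98.9% of the RdDM signal, and ago4 75.9% and 74.7%. In the non-RdDM class spt5l then kept 102% and 113%, and ago4 78.4% and 76.4%. With ribosomal DNA left out of that scale, spt5l kept 89.4% and 91.4% of the RdDM signal, and ago4 88.7% and 84.2%. In the non-RdDM class the values were 96.7% and 104% in spt5l, and 91.8% and 85.9% in ago4. The genotypes did not overlap in either class on these scales, but in the RdDM class without ribosomal DNA they nearly met. Scaled to protein-coding windows outside Pol V transcription, the genotypes overlapped in both classes.

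**Figure D2:**
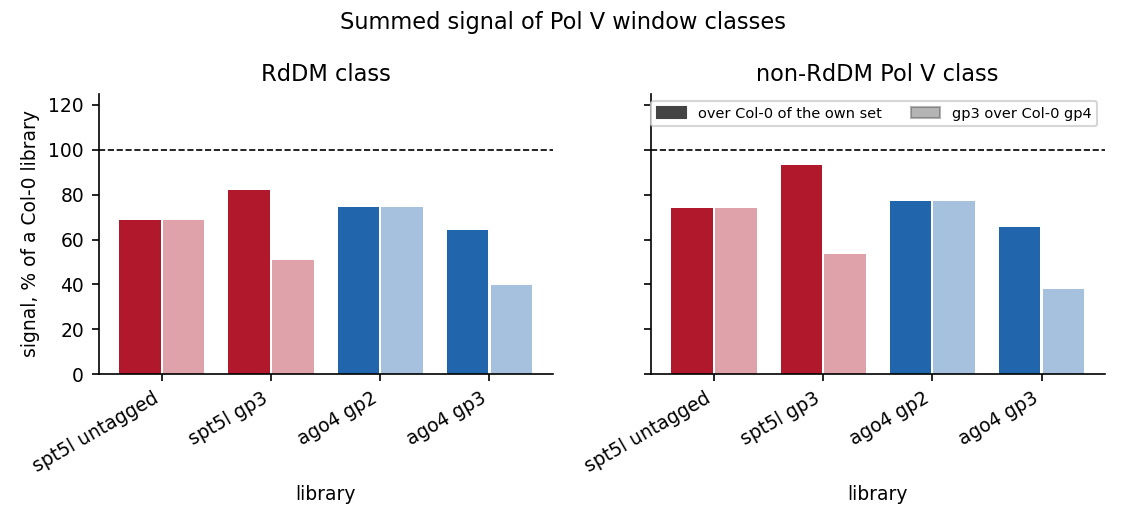
Share of Pol V signal kept in each mutant library (y axis, percent of Col-0), for the RdDM and the non-RdDM class; solid bars divide by the own-set Col-0, and pale bars differ from them only in dividing the gp3 libraries by Col-0 of gp4. The spt5l and ago4 bars overlap in both classes, and both gp3 libraries are lower over Col-0 of gp4.

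Whether the same windows lost signal was read first in libraries that share nothing: spt5l and Col-0 of the untagged set, and ago4 and Col-0 of gp2. This pairing was chosen after the data were seen. A window was called low when it kept at most 25%, among 18690 Pol V windows with at least 20 counts in both Col-0 libraries. Of these windows, 2316 (12.4%) were low in spt5l and 3918 (21.0%) in ago4. Both were low in 1474 windows, which is 63.6% of the spt5l windows (95% exact binomial interval 61.6 to 65.6) and 37.6% of the ago4 windows (36.1 to 39.2). These intervals cover counting error only, and neighbouring windows share reads. The log2 ratios of the 2 mutants correlated at 0.44 across the windows (Spearman 0.38), a description over windows that are not independent. Correlations were lower when windows also needed counts in Col-0 of gp3, as given below. Most windows low in spt5l were thus low in ago4 too, while most windows low in ago4 kept more than 25% in spt5l.

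The gp3 libraries, which took no part in the sorting, kept the 4 kinds of window apart. Their levels are given over the mean of Col-0 of gp4, gp5 and gp6, as sums over the windows of a kind. The 1474 windows low in both stood at 10.8% in spt5l of gp3 and at 5.64% in ago4 of gp3. The 842 windows low in spt5l alone stood at 21.3% in spt5l of gp3 and at 59.1% in ago4 of gp3. The 2444 windows low in ago4 alone stood at 90.3% in spt5l of gp3 and at 11.8% in ago4 of gp3. The other 13930 windows stood at 103% in spt5l of gp3 and at 84.4% in ago4 of gp3. Sorting by 1 library of each genotype thus carried over to the other library of that genotype, and the windows of each mutant that were not shared recurred too. Col-0 of gp3 moved with part of this. It stood at 12.5% in the windows low in both, 50.9% in those low in spt5l alone, 49.9% in those low in ago4 alone and 119% in the rest. The levels of Col-0 of gp4 to gp6 themselves ranged from 50.8% to 174% in the windows low in both. The background of the antibody, read in nrpe1 of gp3, was 0.285%, 3.48%, 3.80% and 32.7% in the same order. The windows that both mutants lose are thus also low in 1 wild-type library of the study, and what part that library has in the shared loss was not tested.

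The windows were also counted singly. Of the windows low in both, with at least 20 counts over Col-0 of gp4 to gp6, 83.0% were at or below 25% in spt5l of gp3, 94.7% in ago4 of gp3 and 81.6% in Col-0 of gp3. Of those low in spt5l alone the shares were 66.7%, 24.9% and 28.1% in the same order. Of those low in ago4 alone they were 3.97%, 85.3% and 35.9%. Windows low in neither gave 1.08%, 7.46% and 3.07%.

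**Figure D3:**
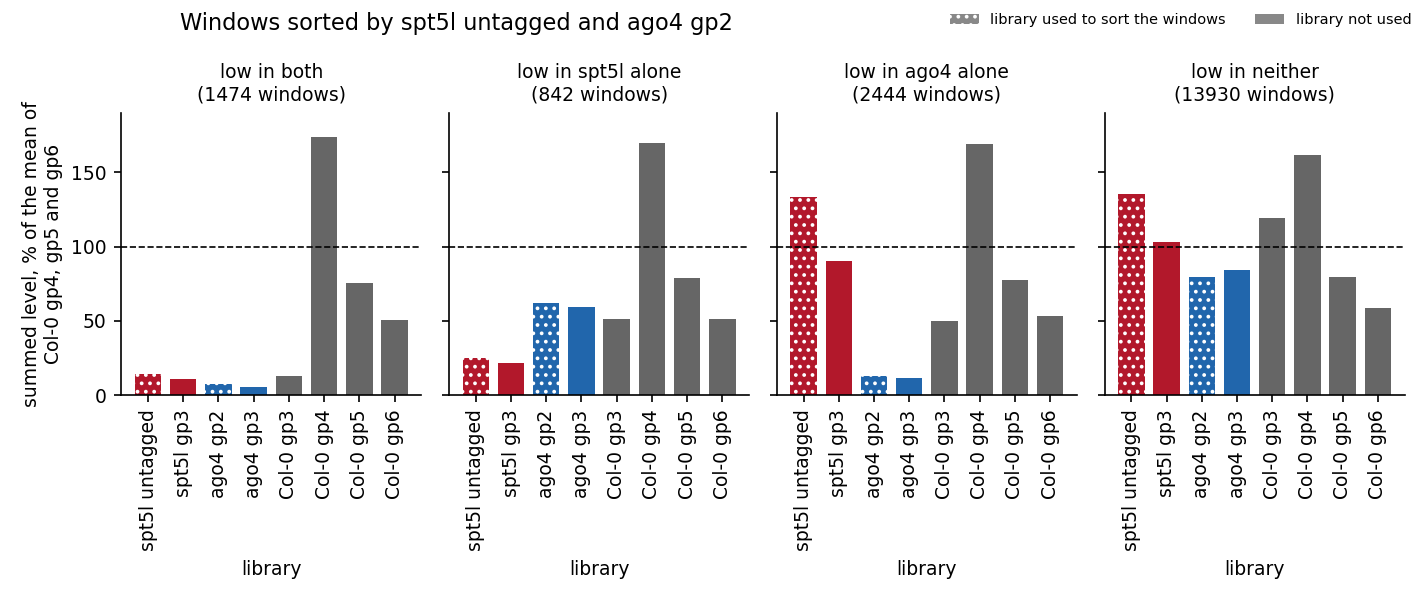
Summed level in spt5l, ago4 and Col-0 libraries (y axis, percent of the mean of Col-0 gp4, gp5 and gp6, dashed line at 100) in Pol V windows sorted by spt5l untagged and ago4 gp2, whose bars are dotted. In windows low in both, the gp3 libraries stand at 10.8% (spt5l), 5.64% (ago4) and 12.5% (Col-0); the Col-0 libraries of gp4 to gp6 themselves range from 50.8% to 174% there.

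DNA methylation had been measured in other plants, leaves of 3.5-week-old nrpe1, the mutant of the largest Pol V subunit, and Col-0. The values are the authors' averages per window, with no coverage, so no test is given. Only CHH methylation, the context that RdDM maintains, was read. A value was given for 1038 of the windows low in both, 638 of those low in spt5l alone, 1906 of those low in ago4 alone and 11818 of the rest. In the windows low in both, mean CHH methylation was 0.223% in nrpe1 and 19.1% in Col-0. It was 0.864% in nrpe1 and 14.5% in Col-0 in windows low in spt5l alone, and 2.03% in nrpe1 and 21.5% in Col-0 in windows low in ago4 alone. In windows low in neither it was 2.38% in nrpe1 and 18.8% in Col-0. All 4 kinds of window were thus methylated in Col-0, and the residue in nrpe1 was smallest in the windows that both mutants lack. Their share on chromosome 2 between 4 and 12 Mb was 9.23%, against 26.3% of those low in ago4 alone and 6.65% of those low in spt5l alone.

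Read with the Col-0 library of each own set, all 3 included, fewer windows were low. The shares in common were smaller, and so were the shares over all windows given beside them. Among 12688 windows with at least 20 counts in Col-0 of the untagged set, gp2 and gp3, 1169 (9.21%) were low in ago4 of gp2. Of these, 10.6% were low in untagged spt5l (3.70% of all windows were) and 6.16% in spt5l of gp3 (4.0% of all). In ago4 of gp3, 68.6% were low (8.54% of all). With Col-0 of gp4 as the divisor for gp3 (13683 windows), 46.5% of the windows low in ago4 of gp2 were low in spt5l of gp3 (19.2% of all), and 39.1% in untagged spt5l (12.8% of all). The RdDM level of Col-0 was 2.54 in gp4 and 1.58 in gp3, so the summed RdDM level kept in gp3 is smaller over gp4, and no other Col-0 library was tried here. Read the other way over own-set Col-0, 26.4% of the windows low in untagged spt5l were low in ago4 of gp2 (9.21% of all). In ago4 of gp3, 18.8% were low (8.54% of all). With Col-0 of gp4 for gp3, 85.8% were low in ago4 of gp3 (43.7% of all) and 65.6% in ago4 of gp2 (21.4% of all). The minimum of 20 counts in Col-0 of gp3 leaves out the windows that this library lacks. Over the 12688 windows, log2 ratios of untagged spt5l correlated at 0.15 with ago4 of gp2 and at 0.013 with ago4 of gp3. Those of spt5l of gp3 correlated with ago4 of gp2 at −0.19 (Spearman −0.27). With Col-0 of gp4 for gp3 the 3 values were 0.46, 0.47 and 0.44. In sums over own-set Col-0, the 1169 windows low in ago4 of gp2 kept 68.5% in untagged spt5l and 118% in spt5l of gp3. The 469 low in untagged spt5l kept 48.5% in ago4 of gp2 and 77.1% in ago4 of gp3. Larger sets asked for 20 counts only in the Col-0 library of the choosing set. There 4072 windows low in ago4 of gp2, of 19398, kept 45.7% in untagged spt5l but 167% in spt5l of gp3. The mean of 106% was 40.4% with Col-0 of gp4. The 4362 windows low in untagged spt5l, of 36826, kept 34.3% in ago4 of gp2 and 86.2% in ago4 of gp3. Their mean of 60.2% was 25.2% with Col-0 of gp4.

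The direct comparison of spt5l with ago4 was made with edgeR's quasi-likelihood test over 19 libraries, with sets as blocks. Of 36843 windows tested, 1994 (5.41%) were higher in spt5l and 1191 (3.23%) were lower. By class, 1548 RdDM windows were higher and 729 lower of 25444, 430 non-RdDM windows were higher and 229 lower of 6029, and 16 windows without Pol V transcription were higher and 233 lower of 5370. Differences in both directions were thus found within the Pol V classes, but only the higher direction was more frequent there than elsewhere. The share higher in spt5l was 6.08% (RdDM class) and 7.13% (non-RdDM class), against 0.298% without Pol V transcription. The share lower in spt5l was 2.87% and 3.80% in the same order, below the 4.34% without Pol V transcription. In this fit the lower direction was therefore not particular to the Pol V classes. The median log2 difference was −0.23 without Pol V transcription, against −0.09 (RdDM) and 0.03 (non-RdDM). Scaled to the windows without Pol V transcription, the median of all windows was 0.31. The calls by class were read in the main scaling only. The log2 ratio of spt5l to ago4 within gp3 correlated at 0.82 with that across the untagged set and gp2 over the 12688 windows, with no library in common. Leaving out Col-0 of gp3 gave 2076 windows higher and 1517 lower. The counts rest on few libraries. The higher count was 399 without spt5l of gp3, 482 without ago4 of gp3, 844 without ago4 of gp2 and 759 without Col-0 of gp2. The lower count was 374 without spt5l of gp3, 637 without untagged spt5l, 312 without ago4 of gp3 and 704 without Col-0 of gp2. Scaled to library totals, the median log2 difference of all windows was 0.46 instead of −0.09, and 3589 windows were higher and 1087 lower.

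Beside Col-0, the windows higher in spt5l were mostly windows that ago4 had lost. Their 1978 members in the Pol V classes kept 78.7% (untagged) and 192% (gp3) in spt5l, and 6.91% (gp2) and 6.79% (gp3) in ago4. Over the mean of the 5 other Col-0 libraries they stood at 124% and 91.2% in spt5l, 5.57% and 3.23% in ago4, and 47.6% in Col-0 of gp3. The 958 Pol V windows lower in spt5l kept 15.9% and 17.9% in spt5l, and 160% and 156% in ago4. Over the 5 other Col-0 libraries they stood at 26.5% and 16.0% in spt5l, 132% and 140% in ago4, and 89.6% in Col-0 of gp3. Summed over the windows, each direction was low in 1 mutant and at or above the other Col-0 libraries, or close to them, in the other mutant. These levels were read in the libraries that made the calls. The gap between the mutants was therefore set by the choice of windows and is a description only. In its own comparison with Col-0, spt5l had 1188 windows lower (3.22%) and 167 higher (0.453%). In its own, ago4 had 2600 lower (7.06%) and 465 higher (1.26%). These comparisons share the Col-0 libraries. Without Col-0 of gp3 the counts were 1762 lower in spt5l, and 3399 lower and 902 higher in ago4. They fell to 73 lower in spt5l without its untagged library and 163 without untagged Col-0. For ago4 they fell to 494 lower without its gp2 library and 452 without Col-0 of gp2.

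The share of windows higher in spt5l differed along the chromosomes. On chromosome 2 between 4 and 12 Mb, where the AGO4 gene lies, 718 of 3151 Pol V windows tested (22.8%) were higher in spt5l and 92 were lower. Outside that stretch 1260 of 28322 (4.45%) were higher and 866 (3.06%) lower. Within the stretch each 2-Mb interval had 21.7% to 24.8% of its windows higher. Similar shares appeared on chromosome 1 between 8 and 10 Mb (146 higher and 36 lower of 604, 24.2%) and on chromosome 5 between 26 and 28 Mb (28 higher and 6 lower of 116, 24.1%), and lower ones on chromosome 1 between 30 and 32 Mb (4 higher of 22, 18.2%), chromosome 2 between 2 and 4 Mb (82 of 694, 11.8%) and chromosome 1 between 6 and 8 Mb (52 of 442, 11.8%). The interval of chromosome 5 that holds SPT5L, 0 to 2 Mb, had 23 higher (7.80%) and 7 lower of 295. Among windows without Pol V transcription in the stretch of chromosome 2, 7 were higher and 13 lower of 258. The stretch also showed in the kept signal. Over the own-set Col-0, the median Pol V window there kept 74.3% (untagged) and 84.5% (gp3) in spt5l, and 45.1% (gp2) and 38.0% (gp3) in ago4. Outside it the medians were 72.9% and 84.9% in spt5l, and 72.2% and 63.0% in ago4. Both ago4 libraries thus kept less on this stretch than elsewhere, and the spt5l libraries kept about as much as elsewhere. Among the 18690 windows sorted above, 42.6% of those on the stretch were low in ago4 of gp2 and 10.5% in untagged spt5l. On the stretch the 2 mutants overlapped by 70.8% of the spt5l windows and 17.5% of the ago4 windows. Outside it 18.6% of all windows were low in ago4 of gp2 and 12.6% in untagged spt5l. There the mutants overlapped by 63.0% of the spt5l windows and 42.6% of the ago4 windows. Whether the place of AGO4 in this stretch bears on the calls was not tested.

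**Figure D4:**
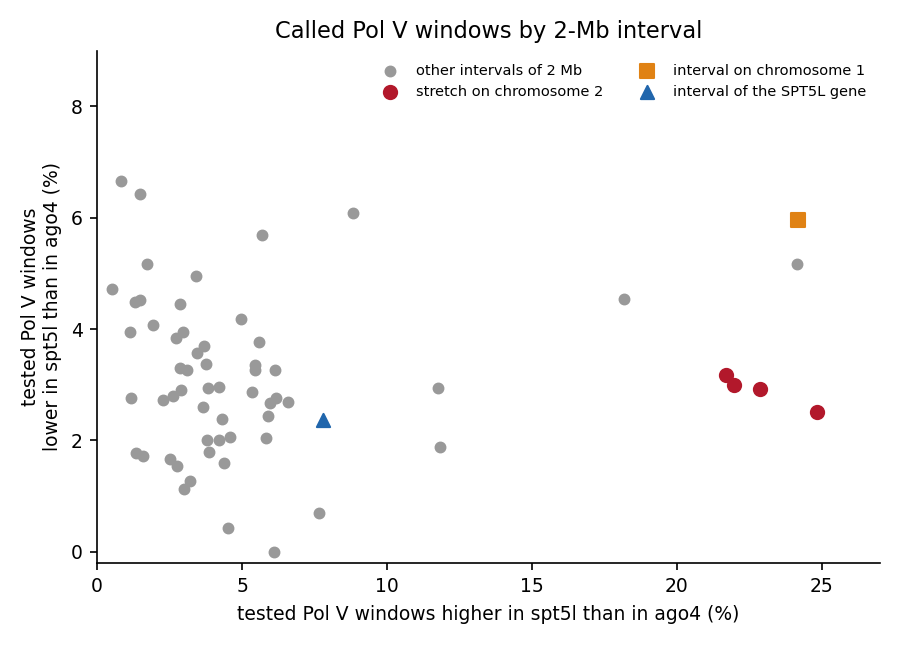
Each point is a 2-Mb interval, placed by the percent of its tested Pol V windows that are higher in spt5l than in ago4 (x axis) and lower (y axis). The 4 intervals of chromosome 2 between 4 and 12 Mb (circles at 21.7% to 24.8%) lie far to the right. So do chromosome 1 at 8 to 10 Mb (square, 24.2%) and chromosome 5 at 26 to 28 Mb (24.1%, drawn among the other intervals). The interval of SPT5L (triangle) is at 7.80%.

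Touching windows of the same direction formed 1020 regions higher in spt5l (median 350 bp, longest 2450 bp), of which 305 lay on the stretch of chromosome 2, and 602 lower regions (median 200 bp, longest 1400 bp), of which 61 lay there. In 908 of the higher regions and 508 of the lower ones, both spt5l libraries were on the same side of both ago4 libraries at the best window. The same libraries made the calls, so this separation was largely set by the choice and is a description only. The regions named here were taken by smallest adjusted p at least 500 kb apart, and counts are of the best window. A fold against a group without counts uses a floor of 3 counts over that group and is a lower bound.

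Among the regions higher in spt5l, chr2:6885601-6886400 inside the pseudogene AT2G15810 had 92 (untagged) and 185 (gp3) counts in spt5l, 0 in both ago4 libraries, and 61, 44 and 54 in Col-0 of the untagged set, gp2 and gp3. Its level was at least 102-fold higher in spt5l than in ago4 (adjusted p = 1.24e-07). Of these 7 libraries, only those of ago4 had no count there. The region chr1:10156501-10156850, between AT1G29075 and AT1G29080, had 87 and 66 counts in spt5l, 0 in both ago4 libraries and 44, 30 and 1 in Col-0 (at least 56.5-fold, adjusted p = 6.91e-08). Near CLV3, the gene of the signalling peptide CLAVATA3 that limits the shoot stem cells, chr2:11663101-11663900 had 175 and 132 counts in spt5l, 1 and 0 in ago4, and 79, 48 and 0 in Col-0. In both regions Col-0 of gp3 resembled ago4 rather than the other Col-0 libraries. Inside SPDS3, a spermidine synthase family gene, chr5:21534301-21534650 had 72 and 53 counts in spt5l, 0 in ago4 and 24, 15 and 0 in Col-0 (at least 46.1-fold). The other 4 named regions, chr1:28312501-28312850 beside BLH11, chr2:9047701-9048800 over AT2G21100, chr5:7777051-7778000 over AT5G23115 and chr1:9203701-9204350 beside FBR12, had 53 to 175 counts in spt5l and 0 to 2 in ago4. Their Col-0 of gp3 counts were 2 to 9, against 29 to 104 in the other 2 Col-0 libraries.

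Among the regions lower in spt5l, chr1:29526751-29527250 at CYP708A3, a cytochrome P450 gene, had 0 counts in both spt5l libraries, 129 (gp2) and 69 (gp3) in ago4, and 79, 24 and 39 in Col-0. The level in ago4 was at least 59.6-fold higher than in spt5l (adjusted p = 2.3e-09), and no Col-0 library was low. Between PAP1 and PDE331, chr2:114301-114650 had 0 in spt5l, 57 and 34 in ago4, and 51, 28 and 0 in Col-0 (at least 27.4-fold). At chr4:5634751-5635250, over the long non-coding RNA AT4G05605, spt5l had 0 and 1 counts, ago4 96 and 56, and Col-0 36, 32 and 2. At chr1:20007601-20007800 spt5l had 0 counts, ago4 42 and 25, and Col-0 57, 10 and 0 (at least 20.2-fold), a call lost with DESeq2 (adjusted p = 0.782). The smallest adjusted p of all, 7.79e-13, came from chr3:7286551-7287200 between UCNL and PLT1, a root stem cell regulator. It had 1 and 0 counts in spt5l, 221 and 143 in ago4 and 9, 0 and 0 in Col-0, and the call was lost with DESeq2 (adjusted p = 0.0652). Here ago4 was higher than Col-0 by edgeR (adjusted p = 1.17e-12).

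**Figure D5:**
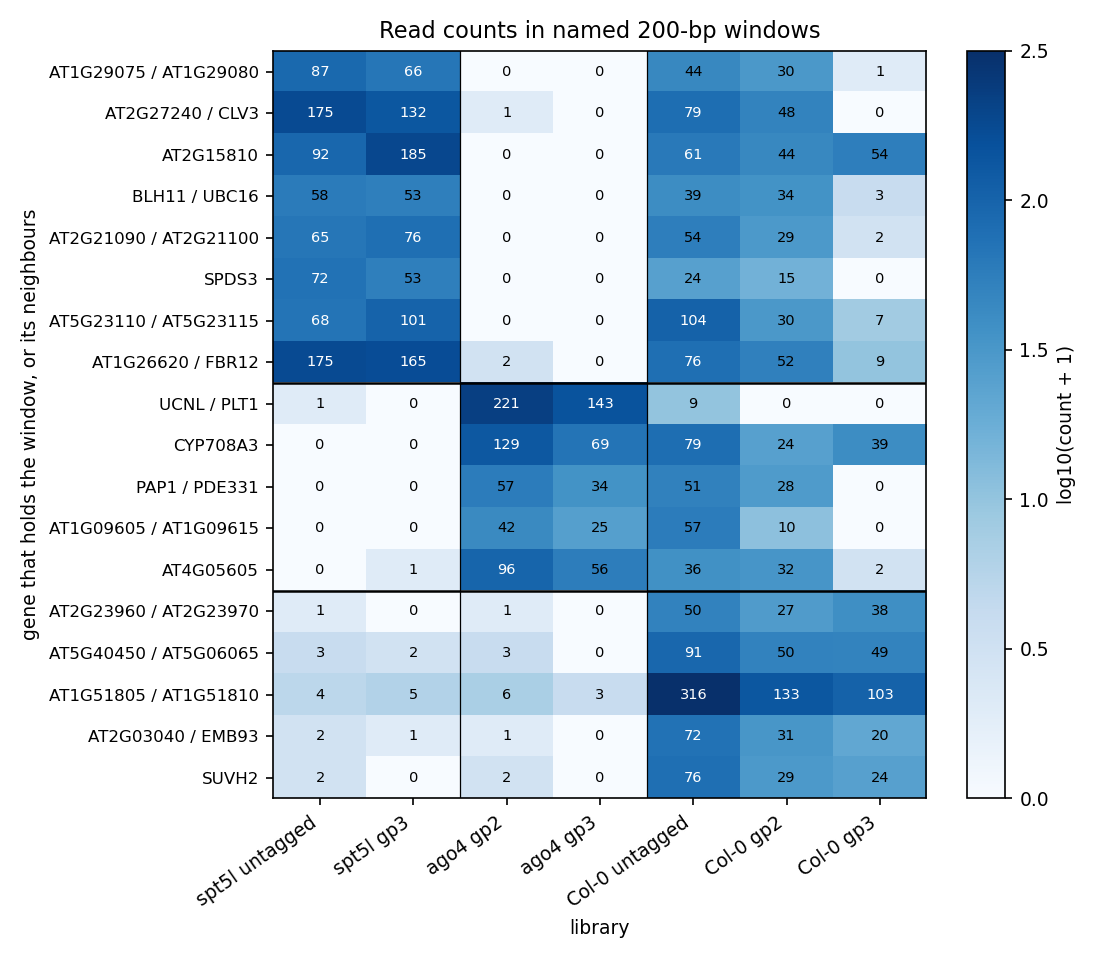
Read counts in the best window of each named region (rows, by gene) in the spt5l, ago4 and Col-0 libraries (columns); each cell prints the count and is shaded by log10 of the count + 1. The upper block is higher in spt5l, the middle block lower in spt5l and the bottom block low in both mutants; Col-0 of gp3 has 9 counts or fewer in 7 of the 8 upper windows.

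The windows low in both were named among those with at least 20 counts in all 3 Col-0 libraries, so Col-0 of gp3 has counts in each. At chr1:19226551-19226750, between AT1G51805 and AT1G51810, spt5l had 4 and 5 counts, ago4 6 and 3, and Col-0 316, 133 and 103. At chr5:16196851-16197050 the counts were 3 and 2 in spt5l, 3 and 0 in ago4, and 91, 50 and 49 in Col-0. Inside SUVH2, chr2:14109451-14109650 had 2 and 0 counts in spt5l, 2 and 0 in ago4, and 76, 29 and 24 in Col-0. SUVH2 encodes a methyl-DNA-binding protein that helps bring Pol V to its targets. Over its whole gene body the counts were 6 and 19 in spt5l, 28 and 8 in ago4, and 160, 82 and 68 in Col-0. The SUVH2 gene body was lower than Col-0 in spt5l (log2 −3.17, SE 0.69, edgeR adjusted p = 0.013) and in ago4 (−2.54, SE 0.68, adjusted p = 0.022), comparisons that share Col-0. The call in spt5l was lost without its untagged library (adjusted p = 1), without untagged Col-0 (0.165) or with libraries of 3 sets (0.0515), and that in ago4 without its gp2 (0.133) or gp3 library (0.370) or Col-0 of gp2 (0.161). SUVH2 overlaps AT2G08565. The other 2 windows, chr2:10199101-10199300 and chr2:893701-893900, had 0 to 2 counts in the mutants and 20 to 72 in Col-0. Being low in both mutants and covered in the gp3 wild type was the rule by which these windows were chosen, and so is no result.

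Few gene bodies passed the test. Of 15500 gene bodies tested, 142 (0.916%) were higher in spt5l than in ago4 and 140 (0.903%) were lower. The higher count was 39 without spt5l of gp3 and 64 without ago4 of gp3, and the lower count 72 and 89. The counting strand is not given, so overlapping and antisense genes cannot be told apart. Of the 142 higher, 79 lay on chromosome 2 between 4 and 12 Mb, where 1087 genes were tested, as did 9 of the 140 lower. Of the 10 with the largest rise, 8 had no count in either ago4 library. AT2G14870 had 236 and 169 counts in spt5l, 0 in ago4 and 210, 107 and 154 in Col-0, at least 149-fold higher in spt5l (adjusted p = 3.34e-08). AT2G19960, which overlaps AT2G07255, had 121 and 246 in spt5l, 0 in ago4 and 110, 109 and 192 in Col-0 (at least 135-fold). AT2G15810 had 495 and 688 in spt5l, 4 and 0 in ago4, and 353, 192 and 269 in Col-0 (log2 7.82, SE 0.85, adjusted p = 8.32e-10). The microRNA gene MIR405a had 49 and 33 in spt5l, 0 in ago4 and 83, 25 and 6 in Col-0. Its call was lost without spt5l of gp3 (adjusted p = 0.412), ago4 of gp2 (0.162), ago4 of gp3 (0.0743) or Col-0 of gp2 (0.175). LBD16, a regulator of lateral root formation outside the stretch, had 85 and 88 in spt5l, 4 and 0 in ago4, and 107, 114 and 0 in Col-0. Its call was lost with DESeq2 (adjusted p = 0.9985), without sets as blocks (0.0575) and without spt5l of gp3 (0.145). The other 5, AT2G11200, AT2G23330, AT2G14290, AT3G45638 and AT2G12820, had 19 to 77 counts in spt5l and 0 in ago4. Of these 10, AT2G14870, AT2G19960, AT2G15810 and AT2G11200 passed in every alternative run that gave them a value.

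Among the genes lower in spt5l, the non-coding RNA gene AT2G01422 had 4 and 8 counts in spt5l, 294 and 237 in ago4, and 320, 146 and 373 in Col-0 (log2 −6.02, SE 0.73, adjusted p = 1.64e-08). LCR31, a small defensin-like gene, had 0 in spt5l, 176 and 71 in ago4, and 2, 3 and 0 in Col-0. AT1G27550, AT1G27555, AT1G27580 and AT1G28455, which carry locus numbers close to that of LCR31 (AT1G28335), had 0 to 4 counts in spt5l, 47 to 254 in ago4 and 0 to 19 in Col-0. MYB87 had 0 and 2 in spt5l, 129 and 73 in ago4, and 3, 0 and 3 in Col-0. In these 6 genes the counts were thus high in ago4 and low in both spt5l and Col-0. The remaining 3 rest on 1 library. AT5G48140 had 0 in spt5l, 843 (gp2) but 3 (gp3) in ago4, and 9, 45 and 0 in Col-0. AT5G47000 had 664 and 1 and SVL5 383 and 1 in ago4. Of the 10 genes lower in spt5l, AT2G01422 passed in every alternative run that gave it a value, and each of the others lost its call in at least 1.

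Transfer RNA genes, which RNA polymerase III transcribes, took a large share of the lower calls: 62 of 249 tested were lower in spt5l and 0 higher by edgeR (54 and 0 by DESeq2, 147 and 0 at an unadjusted p under 0.05), with a median log2 difference of −1.51 against −0.07 over all gene bodies. Their pooled counts kept 64.3% (untagged) and 81.2% (gp3) of Col-0 in spt5l, and 110% (gp2) and 230% (gp3) in ago4. Near-identical tRNA copies share reads, so single tRNA genes are uncertain. Of 2369 pseudogenes tested 46 were higher and 8 lower, and of 11568 protein-coding genes 64 were higher and 46 lower.

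Of 54 list entries tested between the mutants 1 passed, a count too small to set the lists apart from all gene bodies (0.916% higher and 0.903% lower). DML1 is an entry both of the known RdDM targets and of the genes of methylation maintenance and removal. Of 25 RdDM pathway genes 10 passed the filter on low counts, KTF1 was higher in spt5l by edgeR and 0 were lower. Of 7 known RdDM targets 6 were tested and 0 passed in edgeR or DESeq2, with 1 lower at an unadjusted p under 0.05. FWA, a homeobox gene silenced by methylation of its promoter repeats, had 80 and 68 counts in spt5l, 80 and 38 in ago4, and 185, 116 and 47 in Col-0. SDC, another silenced target, had 59 and 45 in spt5l, 48 and 20 in ago4, and 53, 27 and 35 in Col-0. ATMYC1 had 236 and 120 in spt5l, 413 and 199 in ago4, and 204, 114 and 151 in Col-0 (log2 −1.38, adjusted p = 0.548). Of 13 genes of methylation maintenance and removal 9 were tested and 0 passed. DML1 (ROS1), a DNA demethylase, had 207 and 155 counts in spt5l, 142 and 51 in ago4 and 293, 196 and 72 in Col-0. All 17 photosynthesis genes and all 12 housekeeping genes passed the filter, and 0 passed the test (median log2 0.52 and 0.21). In these 3 lists 0 genes passed with DESeq2 or at an unadjusted p under 0.05. Summed over 100-kb bins, 17 of 1172 bins of RdDM windows (1.45%) were higher in spt5l and 6 (0.512%) lower.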

How the data were processed

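The authors deposited whole-number read counts per window for 24 IPARE libraries, and the average methylation per window as a fraction, printed here as percent and made by the authors from 4 bisulfite samples with no coverage given. Another 4 columns, of CG and CHG methylation, were not used. The submitters' processing notes name the TAIR10 build and, without versions, Bowtie2, UMI-tools, Bismark and cutadapt. Read filters and strand are not given in these sources. Window classes are the authors' lists. The labels name them for untagged, gp3 and gp4 libraries of Col-0 and nrpe1.

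Samples were grouped by labelled genotype. The tag grp2 of 1 ago4 title was read as gp2. The members, lists and tests were chosen with earlier results of these data known. Counts were tested with edgeR 4.0.16 in R 4.3.3 (quasi-likelihood test, TMM, filterByExpr at count minimum 10 and total minimum 15, Benjamini-Hochberg threshold 0.05), in 1 fit of the 19 libraries of 6 replicated genotypes with the set as a replicate block. The block was used because deviations of Col-0 and nrpe1 libraries of the same set correlated at 0.258, 0.302, 0.279, 0.134 and 0.358 in the 5 sets with both, all over 0.1, although pairs taken from different sets reached −0.234 to 0.222 and so overlap these values. Those of spt5l and ago4 in gp3 correlated at 0.253. Gene bodies sum the windows whose midpoint lies in a gene of a RefSeq table of TAIR10.1, whose coordinates are not printed, over 37369 genes. No genome sequence was used. Similarity and low-window readings use counts scaled to windows without Pol V transcription, ribosomal DNA left out. No library pair was a duplicate: the chi-square per degree of freedom was 9.57 between the spt5l and 20.9 between the ago4 libraries.

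Named regions are the 5 per direction with the smallest adjusted p, at least 500 kb apart, with both spt5l ratios to Col-0 on 1 side of both ago4 ratios, plus the first 5 outside chromosome 2 from 4 to 12 Mb. Named windows low in both are the 5 with the lowest maximum of the 4 ratios. Named genes are the 10 called per direction with the largest change and libraries that do not overlap, and every list member called.

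Tested on simulated counts of the spt5l and ago4 comparison (33896 windows), true log2 changes of 1 or −1 were called in 0% of cases, −2 in 0%, 2 in 4%, −4 in 59.1% and 4 in 79.2%. Unchanged windows were called in 0.00593%. For 14710 simulated gene bodies, −2 was called in 17.4% and 2 in 20%. Alternatives were DESeq2 1.42.0, other scalings and filters, fewer sets, no block, and leaving out each library. A list of transposon names matched no gene and was not analysed here.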

Additional observations from a re-analysis of the deposited data

Results flagged for a closer look

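The Col-0 library of gp3 lay outside the other wild types by Dixon's rule for a group of 6. Its mean correlation with the other 5 Col-0 libraries over Pol V windows was 0.193, against 0.560 to 0.620 for those 5. Chance alone flags about 1 in 20 groups. This library divides both spt5l of gp3 and ago4 of gp3, and it stood at 12.5% of the gp4 to gp6 mean in the windows low in both mutants, against 10.8% in spt5l of gp3 and 5.64% in ago4 of gp3.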

How the results depend on the processing

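The main fits have a replicate block; without it 2012 windows were higher and 1003 lower in spt5l than in ago4. No replicate block also gave 266 windows higher in spt5l than Col-0, 83 gene bodies lower in spt5l than ago4, and 49 higher and 11 lower bins. DESeq2 called 1059 windows higher and 594 lower in spt5l than ago4, 22 higher and 546 lower in spt5l than Col-0, 203 higher and 1594 lower in ago4 than Col-0, and 3 lower bins. Taking every other window, so that none overlap, left 18413 to test. It gave 1012 and 606, 81 and 578, and 242 and 1297 for the same comparisons, each pair higher then lower. For spt5l against ago4 these were 5.50% and 3.29% of the windows tested, close to the 5.41% and 3.23% of the main fit. Library totals gave 3589 higher in spt5l than ago4, 367 higher in spt5l than Col-0, 4150 lower in ago4 than Col-0, and 6 higher and 2 lower bins. Class scaling gave 4340 lower in ago4 than Col-0, 91 gene bodies lower, and 4 higher and 2 lower bins. DESeq2's size factors gave 1804 lower in spt5l than Col-0. The looser filter gave 405 higher in spt5l and 920 higher in ago4 than Col-0. Libraries of 3 sets gave 305 and 756 for those, and 28 higher and 2 lower bins. Without the stretch of chromosome 2, 1269 windows, 63 gene bodies and 10 bins were higher in spt5l than ago4.

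Leaving out 1 mutant library in turn, windows ranged from 399 to 1904 higher and 312 to 803 lower in spt5l than ago4, from 21 to 118 higher and 73 to 988 lower in spt5l than Col-0, and from 243 to 594 higher and 494 to 2021 lower in ago4 than Col-0. Gene bodies ranged from 39 to 127 higher and 72 to 176 lower, and bins from 3 to 11 higher and 1 to 3 lower. Without Col-0 of gp2 the windows were 759 higher and 704 lower (spt5l against ago4), 71 and 750 (spt5l against Col-0), and 228 and 452 (ago4 against Col-0), with 6 higher and 2 lower bins. Without untagged Col-0 they were 1663 and 1091, 33 and 163, and 335 and 1787, with 10 lower bins. Without Col-0 of gp3 they were 2076 and 1517, 209 and 1762, and 902 and 3399, with 9 lower and 20 higher bins and 139 higher and 159 lower gene bodies.

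The RdDM-class difference, spt5l minus ago4, was 0.35 with ribosomal DNA in the scale, 0.59 over the mean of 6 Col-0 libraries (no replicate block) and −0.087 scaled to protein-coding windows, an alternative added after seeing the data. Leaving out 1 library gave −0.015 to 0.24. The non-RdDM difference was 0.47 and 0.58 under the first 2 of these, and 0.06 to 0.39 without 1 library. The share of windows low in untagged spt5l that were low in ago4 of gp2 was also added after seeing the data. It was 57.1% at a minimum count of 10 (18.6% of all windows were low in ago4) and 70.9% at 40 (26.7% of all). It was 65.7% when low meant at most 50% (42.7% of all), and 68.4% scaled to all counts (20.6% of all). The share of the ago4 windows was 33.6% at 10 (11.0% of all windows were low in spt5l) and 47.1% at 50% (30.6% of all). It was 32.9% scaled to all counts (9.92% of all) and 42.6% without the stretch (12.6% of all).

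Of the values under the alternatives for named windows and genes, and for windows low in 1 library read in the other of its genotype, 427 kept their side of the threshold or moved within the spread. Another 73, all of named windows or genes, no longer passed, 25, all of readings within 1 genotype, moved by more, and none changed direction. AT3G45638, SVL5 and AT5G47000 lost their call in 8 alternatives each. The causes were not tested. With 2 libraries per mutant, changes of 2 on the log2 scale were mostly missed in simulated windows, so windows that were not called may still differ.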
